A study of Homo sapiens with 4 samples.

Results

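The genes described here encode the protein subunits of the cytosolic ribosome. They were chosen by symbol: protein-coding genes named RPL or RPS with a number, together with RPLP0, RPLP1, RPLP2 and RPSA, leaving out the RPS6K kinases and paralogues with an L or P suffix. The rule found 77 genes among 19974 protein-coding genes on chromosomes 1 to 22 and X. Of these, 31 encode subunits of the small ribosomal subunit (RPS genes and RPSA) and 46 encode subunits of the large one (RPL genes). FAU and RACK1 also encode small-subunit proteins, but their symbols fall outside the rule.

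Chromatin accessibility was measured by single-cell ATAC-seq, in which a transposase cuts and tags open DNA in nuclei. The cells were Panc1, a human pancreatic ductal adenocarcinoma line, from transplanted mice, and 1 library was made per mouse. The Carrier group (mice 12 and 31) received the vehicle alone, and the Inflachromene group (mice 11 and 35) received inflachromene, a compound whose known targets are HMGB1 and HMGB2, architectural proteins of chromatin. The tissue is labelled pancreas, and the labels do not state dose, duration, the age of the mice or how the cells were grafted. With n = 2 mice per group, each p-value rests on 4 libraries. In edgeR the spread between libraries at a gene end is moderated by that at all gene ends tested.

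A ribosome has a small subunit that reads the messenger RNA and a large subunit that joins amino acids. Every ribosome needs its protein subunits in fixed proportion, so their genes are active in nearly all dividing cells, and their output rises with growth signals such as MYC and mTOR. Most of their messenger RNAs begin with a cytosine followed by a run of pyrimidines, the 5′ terminal oligopyrimidine (TOP) tract, through which mTOR and LARP1 control their translation. The tract lies at the transcription start, so the same bases also form the centre of the promoter.

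The promoter table of RefSeq (GRCh38.p14) held 62 of the 77 genes. A C followed by at least 4 pyrimidines at the annotated start was present in 42 of these 62 promoters (67.7%), against 6 of 69 promoters of mitochondrial ribosomal proteins (8.7%) and 726 of 15812 protein-coding promoters (4.59%). Stretches of 40 bases before and 20 bases from the start follow, with the pyrimidine tract that begins at the start in capitals. RPS6 and RPL31 are shown for the strongest differences in accessibility, RPS16, RPL41 and RPLP2 for high accessibility, and RPS19 as the gene most often mutated in Diamond-Blackfan anaemia. RPL4 and RPL11 are shown because they have no tract at their annotated start, though in RPL4 a pyrimidine run begins a few bases after it.
RPS6: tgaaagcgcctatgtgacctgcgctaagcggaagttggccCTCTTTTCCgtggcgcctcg
RPL31: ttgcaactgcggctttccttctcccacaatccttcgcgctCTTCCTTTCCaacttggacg
RPS16: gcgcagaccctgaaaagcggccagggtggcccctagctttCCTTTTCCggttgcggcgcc
RPL41: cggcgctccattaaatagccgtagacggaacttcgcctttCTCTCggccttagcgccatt
RPLP2: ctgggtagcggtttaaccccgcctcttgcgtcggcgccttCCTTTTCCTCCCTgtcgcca
RPS19: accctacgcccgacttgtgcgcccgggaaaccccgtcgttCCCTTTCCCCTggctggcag
RPL4: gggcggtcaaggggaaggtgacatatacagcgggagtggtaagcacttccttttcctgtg
RPL11: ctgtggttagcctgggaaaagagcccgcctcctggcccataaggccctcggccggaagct
The stretches lie at chr9:19380217-19380276 (RPS6, minus strand), chr2:101002249-101002308 (RPL31, plus), chr19:39435930-39435989 (RPS16, minus), chr12:56116593-56116652 (RPL41, plus), chr11:809927-809986 (RPLP2, plus), chr19:41860215-41860274 (RPS19, plus), chr15:66504836-66504895 (RPL4, minus) and chr1:23691739-23691798 (RPL11, plus). The tract was 9 bases in RPS6, 10 in RPL31, 8 in RPS16, 5 in RPL41, 13 in RPLP2 and 11 in RPS19, and its median over the 42 promoters was 8. The longest pyrimidine run within 10 bases on either side of the start had a median of 10.5 bases in the ribosomal protein promoters and 4 in all promoters. Runs that reach past this window were cut at its edges.

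Other motifs were searched over 300 bases (250 before the start, 50 from it) on both strands. The ETS core CCGGAAG was in 33.9% of the 62 promoters, against 42.0% of mitochondrial ribosomal protein promoters and 14.1% of all promoters. The YY1 core AAGATGG was in 12.9%, against 33.3% and 6.36%. CCAAT (35.5%, all promoters 36.4%), the SP core GGGCGG (54.8%, all 58.3%), the E box CACGTG (4.84%, all 8.82%), TATAAA (8.06%, all 9.75%) and the NRF1 core GCATGCG (8.06%, all 5.15%) had shares closer to those of all promoters. The shares differed among the 10486 promoters of genes with an accessible gene end in all 4 libraries. There the SP core was in 70.4%, the E box in 10.1%, ETS in 19.3% and YY1 in 7.31%. CCAAT was in 37.1%, TATAAA in 5.71% and NRF1 in 6.63%. RPS6, RPL31, RPLP2 and RPL11 were among the 21 genes with the ETS core. A match describes letters in this window and is not a measured binding site. The median GC content was 59.0% in the ribosomal protein promoters and 62.7% in all promoters.

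**Figure D1:**
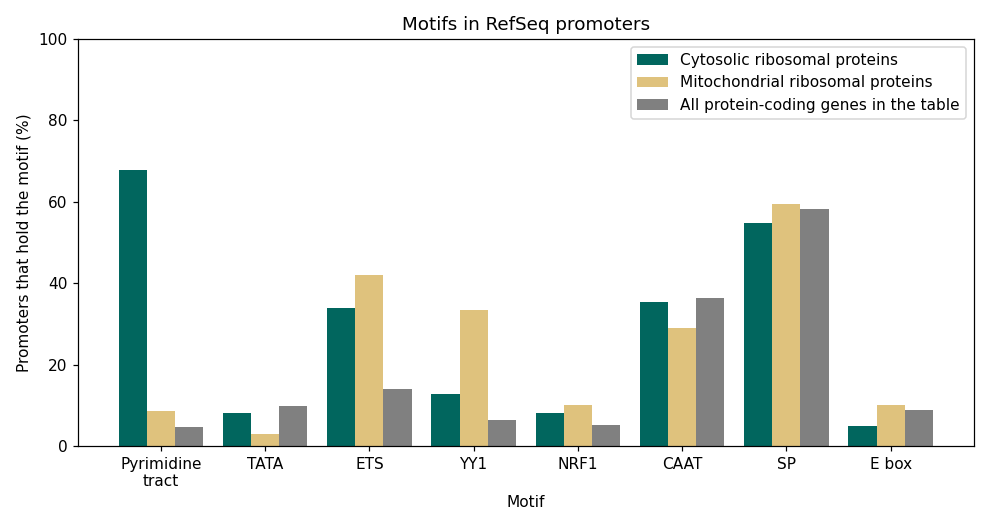
Share of RefSeq promoters (%, vertical axis) that hold each motif, for 62 cytosolic ribosomal protein genes, 69 mitochondrial ribosomal protein genes and all 15812 protein-coding genes in the table. The pyrimidine tract at the start stands at 67.7% in the cytosolic genes against 8.7% and 4.59%, while the ETS and YY1 bars are higher in the mitochondrial genes.

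The libraries held 27088391 to 39947056 counts in 2039 to 5186 barcodes, of which 939 to 2070 had at least 2000 counts and are called deep barcodes. Between 25 and 1209 barcode sequences occurred in both libraries of a pair, and 1115 of the 1209 shared by Carrier 12 and Inflachromene 11 were deep in Carrier 12 and shallow in Inflachromene 11. Shallow barcodes carried 1.74% to 4.37% of a library's counts. Of preset markers, 5 of 6 carcinoma genes had an accessible gene end in all libraries, as had 3 of 5 fibroblast genes and 4 of 5 myeloid genes. Of 4 T and NK cell markers CD3E had one (11.2 to 18.98 CPM). PTPRC (CD45) and all endothelial, B cell, acinar, endocrine and Schwann cell markers had none.

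Every ribosomal protein gene was open. All 77 (100%) had a consensus region, that is a peak present in all 4 libraries, within 1000 bp of an outer gene end, against 12807 of all 19974 genes (64.1%). Of the 62 genes with a promoter entry, 59 had their region at the 5′ end and 57 had a region that covered the outermost annotated start. The centre of the region lay a median of 79 bp from that start. RPL27A and RPL17 had their more accessible region at the 3′ end. For RPL41 the 3′ end was also taken, but its 2 regions include the one that covers the start. The regions of RPL15 and RPS27A covered annotated starts further into the gene. The region taken for RPL6, which it shares with PTPN11, covered none of its annotated starts, and its centre lay 7596 bp from the outermost. Other consensus regions inside the gene, not used here, covered the starts of RPL6. A region was shared with another gene for 25 of the 77, RPL4 with ZWILCH and RPL41 with ZC3H10 among them, so such values belong to both genes.

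Accessibility was above that of most gene ends for most of the set. The mean level of the 4 libraries, in counts per 1000000 counts at tested gene ends (CPM), had a median of 90.0 over the 77 genes (quartiles 75.7 and 124), against 68.1 over all 12807 gene ends. No member lay under 50 CPM, where 34.5% of all gene ends lay, and 60 of 77 (77.9%) were above the median of all gene ends. Per kilobase of region the medians were 98.6 and 67.5 CPM, and the widths were alike (925 and 937 bp). The level was not particular to this set. Of translation factors with a region 79.4% were above the median of all gene ends, and of ribosome assembly genes 76.7% (medians 119 and 95.2 CPM). Of mitochondrial ribosomal proteins 55.4% were. Small- and large-subunit genes had medians of 90.0 and 90.1 CPM. At the low end stood RPS21 (53.9 CPM), RPL19 (54.0), RPL34 (55.0) and RPS15 (56.5), values that lie within the spread between libraries of each other. RPS21 measured 53.9 and 52.1 CPM in Carrier 12 and 31 and 52.9 and 56.6 in Inflachromene 11 and 35.

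**Figure D2:**
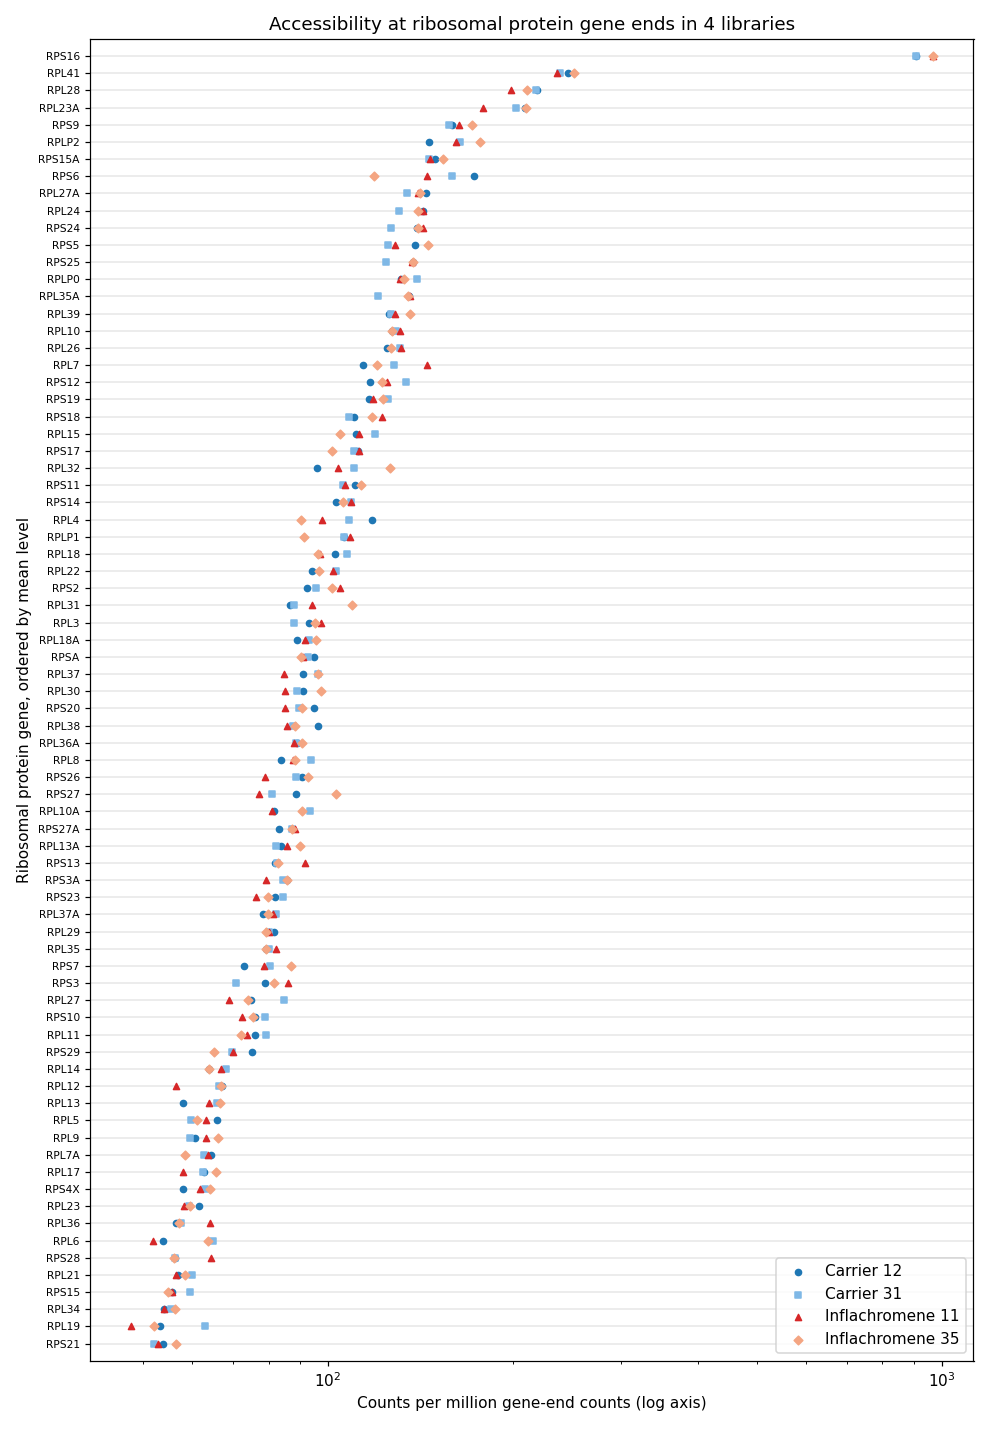
Accessibility of 76 of the 77 ribosomal protein gene ends in CPM (log axis), 1 point per library, genes ordered by mean level and points coloured by group. RPS16 stands alone at 937 CPM, and the other genes lie between 53.9 and 243 CPM with the points of the 4 libraries close together.

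The most accessible genes were RPS16 (937 CPM), RPL41 (243), RPL28 (212), RPL23A (200), RPS9 (163) and RPLP2 (162). RPL41, which encodes the shortest ribosomal protein, combined 2 regions over 1914 bp, and per kilobase it ranked 20 among the 77 at 127 CPM. Its start-side region alone had a mean of 109 CPM, so its second place rests on the sum. RPL28 measured 219 and 218 CPM under Carrier and 199 and 211 under Inflachromene, so its groups did not overlap. RPL23A, at the exit of the peptide tunnel, measured 209 and 202 CPM under Carrier and 179 and 210 under Inflachromene, and its groups did. RPL41 was at 246 and 239 CPM against 236 and 251, also overlapping.

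RPS16, a small-subunit protein near the decoding site, was apart from every other member. Its region (chr19:39435598-39436532) had 908 and 907 CPM in Carrier 12 and 31 and 968 and 966 CPM in Inflachromene 11 and 35. That is 10.7% to 11.5% of all counts at ribosomal protein genes. The gene ends around it were high as well. The 20 other gene ends within 0.5 Mb had a median of 557 CPM, and 10 of them exceeded 500 CPM. The 28 gene ends between 2 and 3 Mb away had a median of 75.6 CPM and a maximum of 199. In the whole genome 16 separate gene-end regions exceeded 500 CPM, and 15 of these lay within 1 Mb of RPS16, which is counted among them. RPS19, on the same chromosome arm, had 121 CPM. DNA copy number was not analysed here, and its part in the level of RPS16 was not tested. The mitochondrial gene MRPS12, at 445 CPM, was the most accessible of the mitochondrial ribosomal proteins and is also on chromosome 19.

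**Figure D3:**
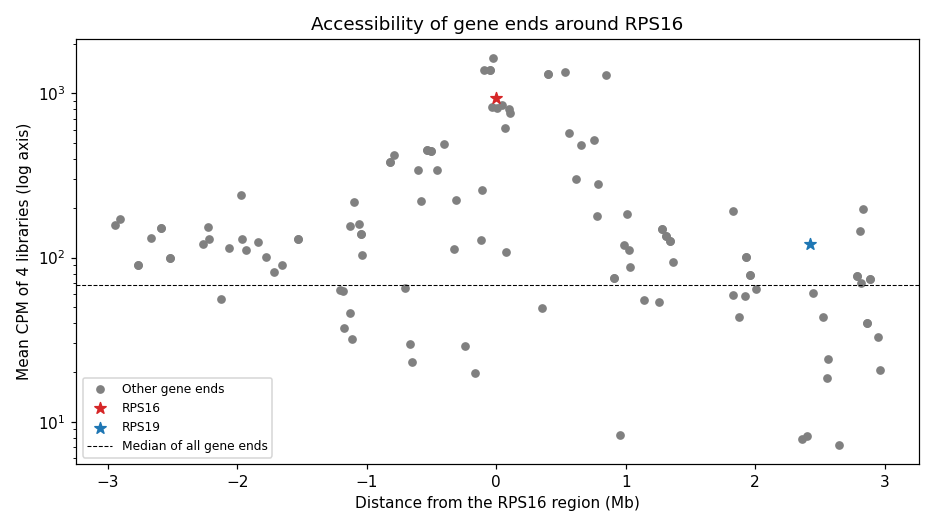
Mean CPM (log axis) of gene ends around RPS16 against distance from its region in Mb, with ribosomal protein genes marked. Values near RPS16 are around 557 CPM in the median within 0.5 Mb and 75.6 CPM between 2 and 3 Mb away.

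No ribosomal protein gene passed the test for a difference under inflachromene. By edgeR's quasi-likelihood test with a Benjamini-Hochberg threshold of 0.05, 0 of the 77 were called, and 0.0% of all 12807 gene ends. At an unadjusted p under 0.05 stood 3 of the 77, against 731 of all gene ends (5.71%). They were RPS6 and RPL4, lower under inflachromene (2.19% of all gene ends), and RPL31, higher (3.52%). DESeq2 called 23 gene ends (0.18%) and no ribosomal protein gene. The log2 fold change, Inflachromene minus Carrier, had a median of 0.01 over the 77 (quartiles -0.06 and 0.08), with 41 above 0 (53.2%) and 36 below. Over all gene ends the median was -0.00 and 49.7% were above 0. For 76 of the 77, RPS6 excepted, the whole 95% interval fell within -0.5 to 0.5, against 79.8% of all gene ends. The same held for 97.3% of mitochondrial ribosomal protein genes, 96.7% of ribosome assembly genes and 100% of translation factor genes with a region. The smallest adjusted p of any member was 0.812.

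Groups did not overlap, each library of one being above each library of the other, for 24 of the 77 genes, 13 higher and 11 lower under inflachromene. Among all gene ends the same held for 34.5% (17.2% higher and 17.3% lower), so the count at ribosomal protein genes (31.2%) was near the background. The 4 libraries also varied little: the SD of log2 CPM over them had a median of 0.067 at ribosomal protein genes and 0.095 at all gene ends. Related lists had similar medians: 0.071 at translation factors, 0.073 at ribosome assembly genes and 0.079 at mitochondrial ribosomal proteins. No member lay under 50 CPM, against 34.5% of all gene ends, and the part of count level in this spread was not tested.

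**Figure D4:**
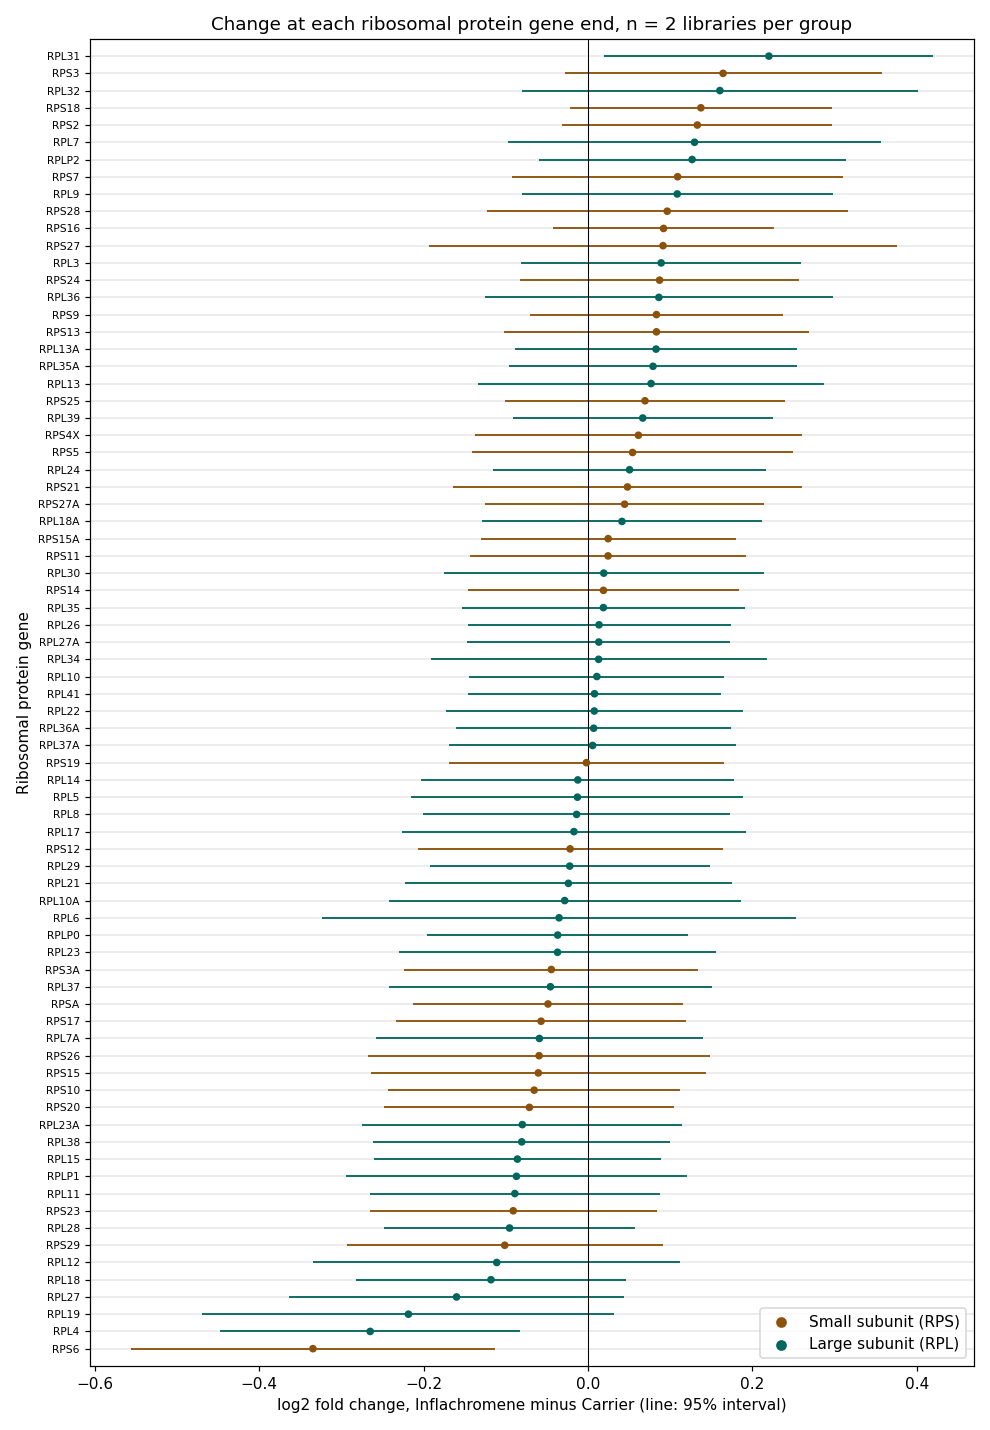
Log2 fold change in accessibility, Inflachromene minus Carrier, for 76 of the 77 ribosomal protein genes with the 95% interval (n = 2 libraries per group), small-subunit genes in brown and large-subunit genes in green. The estimates run from -0.33 at RPS6 to 0.22 at RPL31, and no gene passed the adjusted threshold.

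Among the small-subunit genes, 18 of 31 had a fold change above 0 and the median was 0.02. RPS6, whose protein is the classic target of S6 kinase downstream of mTOR, was the lowest. Its region (chr9:19379828-19380730) measured 173 and 159 CPM in Carrier 12 and 31 and 145 and 119 CPM in Inflachromene 11 and 35. Every Carrier library was above every Inflachromene library, and the log2 fold change was -0.33 (SE 0.10, unadjusted p = 0.00772, adjusted p = 0.812, edgeR, n = 2 per group). Without Inflachromene 11 it was -0.48 with an adjusted p of 0.029 in edgeR, a setting in which 0.593% of all gene ends passed, 0.172% as lower. Without any other library it lay between -0.20 and -0.39 and did not pass; it was -0.20 without Inflachromene 35. Over deep barcodes alone it was -0.33, and with barcodes counted in place of counts -0.18 (unadjusted p = 0.171, edgeR).

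The highest small-subunit values were those of RPS3 (0.16, SE 0.09), RPS18 (0.14, SE 0.07) and RPS2 (0.13, SE 0.07), none of which passed the adjusted threshold. RPS3 and RPS2 line the channel through which messenger RNA enters, and RPS18 lies in the head of the small subunit. RPS3 had 78.8 and 70.9 CPM under Carrier and 86.1 and 81.8 under Inflachromene. RPS2 had 92.4 and 95.4 CPM against 104 and 102. The groups did not overlap in these genes. With both gene ends summed, RPS2 was 0.015 and RPS18 -0.0088, and over the gene body they were 0.029 and 0.0066. RPS3 was 0.090 without Carrier 31. RPS16 (0.09, SE 0.06) and RPS9 (0.08, SE 0.07) were likewise higher without passing, and RPS23 (-0.09) was lower. Of the 8 genes on the list for the mRNA channel and decoding, 4 were above 0 and 4 below. RPS27A, made as a fusion with ubiquitin, had a log2 fold change of 0.04, and RPSA, also known as the laminin receptor, one of -0.05.

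Among the large-subunit genes, 23 of 46 were above 0 and the median was -0.00. RPL4, which with RPL17 lines the peptide tunnel, measured 118 and 108 CPM under Carrier and 97.7 and 90.4 under Inflachromene. Its groups did not overlap, and its log2 fold change was -0.27 (SE 0.08, unadjusted p = 0.00948, adjusted p = 0.812, edgeR, n = 2). When barcodes with a count were counted in place of counts, it was -0.10. RPL31, at the tunnel exit, measured 86.8 and 87.9 CPM under Carrier and 94.0 and 109 under Inflachromene, a log2 fold change of 0.22 (SE 0.09, unadjusted p = 0.0346, adjusted p = 0.839, edgeR). Without Inflachromene 35 it was 0.11 and without Inflachromene 11 it was 0.32. RPL19, also at the exit, was at 53.3 and 62.9 CPM against 47.7 and 52.1, or -0.22 (SE 0.11). It was -0.094 without Carrier 31 and -0.33 without Carrier 12. RPL27 (-0.16), RPL18 (-0.12) and RPL28 (-0.10) were lower, RPL9 (0.11) and RPL3 (0.09) higher, each with groups that did not overlap and none past the threshold. RPL27 was -0.069 without Carrier 31 and -0.25 without Carrier 12, RPL3 0.048 without Carrier 31 and RPL28 -0.054 without Inflachromene 11.

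The stalk that recruits elongation factors had 1 of its 4 genes above 0. RPLP2 measured 146 and 164 CPM under Carrier and 161 and 177 under Inflachromene, a log2 fold change of 0.13 with overlapping groups. Without 1 library it lay between 0.046 (without Carrier 12) and 0.21 (without Carrier 31). The base of the stalk, RPL12 (-0.11), and its other proteins RPLP0 (-0.04) and RPLP1 (-0.09) also overlapped. RPL5 and RPL11, which bind MDM2 together with the 5S RNA, had log2 fold changes of -0.01 and -0.09. Of 9 genes known from Diamond-Blackfan anaemia, an inherited failure of red cell production, 3 were above 0 and 6 below, and RPS19 was at 116 and 125 CPM under Carrier and 118 and 123 under Inflachromene. None of the lists held a gene past the threshold.

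Genes with the pyrimidine tract at their annotated start had a median of 96.7 CPM and a median log2 fold change of 0.01 (n = 42). Those without it had 75.5 CPM and -0.02 (n = 20). The region used did not cover that start in RPL6, RPL15, RPL17 and RPS27A, which lack the tract, nor in RPL27A, which has it. Its centre lay 7596 bp from the start in RPL6, 5169 bp in RPL17 and 6213 bp in RPL27A. The levels therefore compare partly unlike sites, and the part of this in the difference in level was not tested. RPL27A, RPL41 and RPL17, whose higher end was the 3′ end, were also measured at the start. There RPL27A, at the end that holds its start, had 114 and 112 CPM under Carrier and 129 and 126 under Inflachromene, a log2 fold change of 0.17 (SE 0.07, unadjusted p = 0.0374, adjusted p = 0.834, edgeR). At its 3′ end the value was 0.01. RPL41 and RPL17 had 0.11 and 0.06 at their start.

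The differences at ribosomal protein genes went along with those of their chromosomal neighbours. For each gene, the median log2 fold change of the other gene ends within 5 Mb was taken. Over the 77 genes Pearson's r between a gene and its neighbours was 0.61, and 0.51 without RPS6. This is a description across genes that share libraries and sometimes the same neighbours. The sign was the same for 49 of the 77 genes. The median absolute log2 fold change was 0.07, and 0.05 after the value of the neighbours was taken off.

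RPS6 is the clearest case. Of 16 other gene ends within 5 Mb of it on the short arm of chromosome 9, 15 were below 0 and 12 stood at an unadjusted p under 0.05. Their median log2 fold change was -0.33, so that RPS6 minus its neighbours was -0.00. In a fit with an offset for the counts of each 10 Mb window, RPS6 had -0.01. RPL31 also followed its surroundings, with 48 neighbours at a median of 0.18 and a value of 0.03 under the window offset. RPL4 did so less: its 58 neighbours had a median of -0.07, and its value under the offset was -0.21. In the fit with the window offset 0 of the 77 genes stood at an unadjusted p under 0.05, where 2.08% of all gene ends did, fewer than without the offset.

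**Figure D5:**
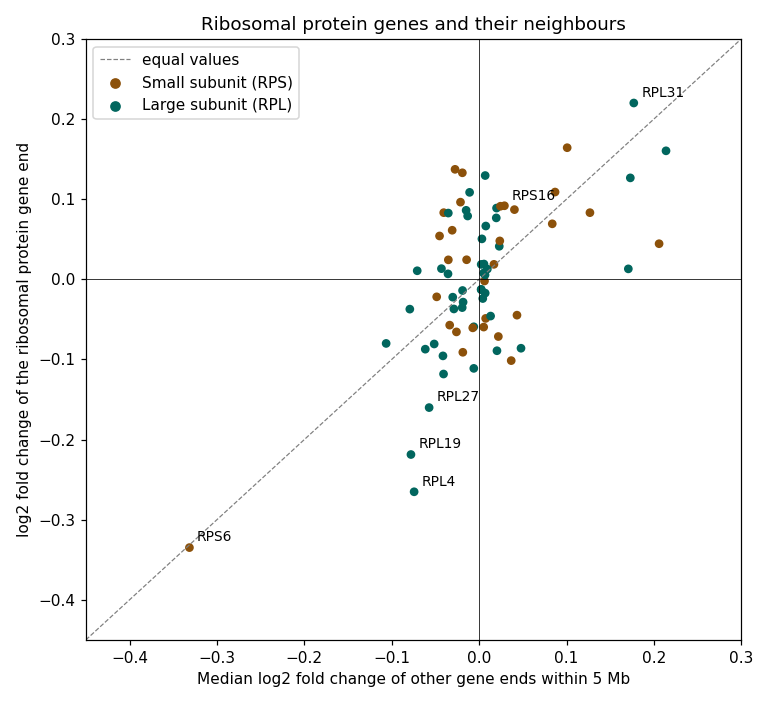
Log2 fold change of 76 of the 77 ribosomal protein gene ends (vertical axis) against the median log2 fold change of the other gene ends within 5 Mb (horizontal axis), with the line of equal values. RPS6 lies at -0.33 on both axes, and RPL4 lies below the line at -0.27 with neighbours at -0.07.

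Along whole chromosomes the members lay near all gene ends on some chromosomes and apart from them on others. All 4 members on chromosome 2 and all 5 on chromosome 11 were above 0 (medians 0.08 and 0.08), where all gene ends of these chromosomes had medians of 0.10 and 0.11. On chromosome 15 all 3 and on chromosome 17 5 of 6 were below 0 (medians -0.09 and -0.08, all gene ends -0.06 and -0.06). The X-linked RPS4X, RPL10, RPL36A and RPL39 lay between 0.01 and 0.07, above the median of -0.03 for all X-linked gene ends. The 3 members on chromosome 16 had a median of 0.08 and the 12 on chromosome 19 one of 0.05, where all gene ends had 0.00 and -0.00. The 1 member on chromosome 14 had -0.10 against 0.00. The genes on the short arm of chromosome 3 did not move together: RPL32 had 0.16 with neighbours at 0.21, while RPL15 had -0.09, RPSA -0.05, RPL14 -0.01 and RPL29 -0.02. RPL32 was 0.014 without Inflachromene 35 and 0.29 without Inflachromene 11, and RPL15 lay between -0.032 without Inflachromene 35 and -0.14 without Inflachromene 11. Under the window offset the sign turned for RPL32 (-0.08), RPLP2 (-0.03) and RPS27A (-0.14), while RPL15 (-0.22) and RPSA (-0.17) moved further below 0.

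The share of gene-end counts at ribosomal protein genes differed between groups by less than the spread between libraries. The share was 1.029% and 1.032% in Carrier 12 and 31 and 1.027% and 1.041% in Inflachromene 11 and 35. The means were 1.030% ± 0.00232 and 1.034% ± 0.00987 (SD, n = 2), a difference of 0.00409 percentage points, with an exact two-sided permutation p of 1.0, where 0.333 is the smallest that 2 against 2 can give. Of all counts in a library, the share was 0.429%, 0.469%, 0.476% and 0.408% in the same order, and it followed the share of counts at gene ends of any kind (41.7%, 45.5%, 46.3% and 39.1%). RPS16 alone held 10.8% and 10.7% of the ribosomal protein counts in Carrier 12 and 31. In Inflachromene 11 and 35 it held 11.5% and 11.2%. The share without RPS16 was not tested.

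Single barcodes were compared at a common depth. A deep barcode had counts in a median of 26, 46, 31 and 30 of the 79 ribosomal protein regions (Carrier 12, Carrier 31, Inflachromene 11, Inflachromene 35). The median depth of deep barcodes was 16317, 34064, 18278 and 20123 counts. When each deep barcode was thinned to 2000 counts, the median was 7 regions in every library. After thinning, RPS16 had a count in 55.7% and 52.6% of deep barcodes under Carrier and 58.8% and 52.9% under Inflachromene. RPS6 had one in 15.4% and 13.95% under Carrier and 13.1% and 10.6% under Inflachromene, and RPS21 in 5.22% and 5.64% against 6.01% and 4.61%. Before thinning RPS6 had a count in 49.4%, 58.3%, 45.3% and 38.9% of deep barcodes, and RPS16 in 92.5%, 82.3%, 87.4% and 89.5%.

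Related gene lists, set beside the cytosolic ribosomal proteins, held no gene past the adjusted threshold either. Of the cytosolic subunits outside the naming rule, FAU had 101 and 100 CPM under Carrier and 106 and 110 under Inflachromene (log2 fold change 0.11), and RACK1, a signalling scaffold on the small subunit, had 173 and 162 against 153 and 157 (-0.11). Mitochondrial ribosomal proteins had a region at 74 of 77 genes, with a median of 70.6 CPM and a median log2 fold change of -0.01, and 2 stood at an unadjusted p under 0.05: MRPL10 (-0.20) and MRPS12 (0.14).

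Of the translation factors 34 of 35 had a region, with a median of 119 CPM, and EIF3B (-0.22) and EIF5B (0.16) stood at an unadjusted p under 0.05. Of 32 ribosome assembly genes 30 had one, and POLR1A, the largest subunit of RNA polymerase I, stood at 0.20 (unadjusted p = 0.0355, adjusted p = 0.839, edgeR). POLR1A and EIF5B are on chromosome 2, like RPL31. All 13 genes of the list for control of ribosomal protein production had a region and none stood at an unadjusted p under 0.05. MYC was at 250 and 246 CPM under Carrier and 238 and 237 under Inflachromene, a log2 fold change of -0.06. The paralogue RPL39L, which rests outside the naming rule by its L suffix, had -0.21 with groups that did not overlap.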

How the data were processed

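The data are 4 libraries, 1 per mouse. Reads were processed on GRCh38 with Cell Ranger ATAC 2.1.0 and Cell Ranger ARC, per the submitters' processing notes, which give no settings. Peaks were deposited by the authors with a matrix of raw counts per peak and barcode for each library. Between 82.4% and 84.9% of entries above 0 are even, so 2 counts are often 1 molecule. No doublet caller was run.

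Peaks sharing 1 bp or more were merged over libraries (128195 regions), and regions with a peak in all 4 libraries were kept (50771). A gene's end is the consensus regions within 1000 bp of an outer gene end in RefSeq's table (GRCh38.p14); of 2 ends, that with the higher mean was taken. Regions without a peak in a library were not tested. Counts were summed over all barcodes and tested over 12807 gene ends with edgeR 4.0.16 (R 4.3.3): TMM factors (0.9955 to 1.004), filterByExpr (0 removed), quasi-likelihood F test, Benjamini-Hochberg adjustment at 0.05. CPM are edgeR's, over gene-end counts summed over genes, so a region shared by genes is counted for each of them. The share of gene-end counts takes each region once. Standard errors and intervals come from the quasi-likelihood statistic. Alternatives were DESeq2 1.42.0, its size factors, other filters, windows, ends, overlaps and barcodes, an offset for 10 Mb windows, and leaving out each library. The fit was tested on simulated data.

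Named genes are those with the 6 highest and 4 lowest levels, up to 8 per direction without overlap between groups, by unadjusted p, members on 9p and 3p, and preset role and comparison genes; RPS19 was added for its known role. The members and lists were chosen with earlier results of these data known. Motifs, tracts and the start-side values used RefSeq's promoter table. Chromosome 8 genes are counted but no sequence of theirs is shown. Groups come from the treatment labels. Figures and exact permutation tests used matplotlib 3.10.9 and scipy 1.17.1 in Python 3.11.15. Some items under these rules are left out of the text and plots, but counts and medians include them.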

Additional observations from a re-analysis of the deposited data

How the results depend on the processing

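No paired analysis was made, because each library is a different mouse and the labels give no pairing between groups. Of the recomputed fold changes of named genes, 382 kept their direction and side of the threshold, 8 turned in sign and 1 became stronger. The counts of genes that follow are not among these. Gene ends called numbered 23 with DESeq2, 2 with the 10 Mb offset and 0 to 76 when 1 library was left out (76 without Inflachromene 11, 6 without Inflachromene 35). Ribosomal protein genes called numbered 0 to 1 without 1 library, the 1 being RPS6 without Inflachromene 11. Those at an unadjusted p under 0.05 numbered 5 with barcodes counted in place of counts (all gene ends 4.8%), 0 with the 10 Mb offset (2.08%) and 2 to 6 without 1 library (2.62% to 9.24%). Members with groups that did not overlap numbered 45 to 55 without 1 library (all gene ends 64.2% to 69.2%), where fewer libraries make overlap rarer by construction. The difference in the share of gene-end counts lay between -0.00289 (without Inflachromene 35) and 0.0111 percentage points without 1 library, and was 0.0153 with barcodes counted in place of counts. The sign turned for RPL28 with barcodes counted in place of counts (0.058), RPS18 with both gene ends summed (-0.0088), RPL12 without Inflachromene 11 (0.0024; the other extreme without 1 library was -0.237), and RPL32 (-0.082), RPLP2 (-0.0315) and RPS27A (-0.14) with the 10 Mb offset; the cause was not tested. After seeing the data, 2 alternatives were added: the start-side end, and leaving out barcodes found in more than 1 library. The latter removed 58.5% and 61.8% of Carrier counts but 3.26% and 1.34% of Inflachromene counts, so it compares unlike remains; RPSA (0.0391) and RPL11 (0.017) turned there, and the difference in share was 0.0228. Deep barcodes alone, which leave out shared barcodes where they are shallow, gave 28 members with groups that did not overlap (all gene ends 34.9%). With 2 libraries a group, differences under about 0.2 on the log2 scale are mostly within the 95% intervals.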
